A study of Homo sapiens with 2 samples.

Results

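CEBPB and 9 genes tied to it in the cellular stress response were compared between MAEL wild-type and MAEL knockout PLC8024 cells. They are the C/EBP family genes CEBPB, CEBPD, CEBPG and DDIT3, the ATF genes ATF3, ATF4 and ATF5, and the stress-response genes TRIB3, PPP1R15A and CHAC1. The 10 genes are 10 of the 58735 genes listed in the deposited count table, matched by gene symbol, and all 10 were among the 17887 genes tested, which reached 10 counts in MAEL WT, MAEL KO or both. The members were chosen by name with earlier results of these data known, among them the KO against WT fold changes, so their values are given as a description without a test. The data are 1 RNA sequencing library of untreated MAEL WT cells and 1 of MAEL KO cells, in which MAEL was targeted with an sgRNA and Cas9. PLC8024, also named PLC/PRF/5 and listed in the labels as Alexander cells, is an epithelial cell line from a human hepatocellular carcinoma (HCC). The study's methods describe knockout lines grown from single sorted cells, so the MAEL KO library may stand for 1 clone. The depth was 19904136 counts in MAEL WT and 20833332 in MAEL KO, and with 1 library per condition no difference has a replicate check.

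C/EBP and ATF proteins are basic leucine zipper (bZIP) transcription factors, which bind DNA as dimers and pair with each other across families. When kinases phosphorylate the translation factor eIF2, most protein synthesis slows while ATF4 mRNA is translated more, and ATF4 with its partners switches on stress genes; this is the integrated stress response. DDIT3 (CHOP), ATF3, TRIB3, PPP1R15A (GADD34) and CHAC1 are textbook targets of that route. In the liver, C/EBP-alpha maintains hepatocyte genes, and C/EBP-beta and C/EBP-delta drive the acute-phase response. The study examined CEBPB as a regulator of PTGS2, the gene of cyclooxygenase 2, which is why CEBPB mRNA is of interest in these cells.

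Promoter sequences are shown for 4 members whose RefSeq windows hold a full letter match to an ATF or C/EBP element, for CEBPB itself, and for PTGS2 as the gene the study linked to CEBPB. ATF5 also held such a match and is not shown. Each window holds 250 bases before and 50 bases after a RefSeq transcript start on GRCh38.p14, printed 5′ to 3′ along the gene's strand. Capitals mark the letters TGATGNAA (the composite C/EBP-ATF element), TTGCNNAA (C/EBP), TGACGTCA (cAMP response element, CRE) and the TATA box (letters TATAAA) on either strand. CEBPG, CEBPB and ATF3 have 2 windows each, of which 1 is shown.
CHAC1, chr15:40953221-40953520, plus strand: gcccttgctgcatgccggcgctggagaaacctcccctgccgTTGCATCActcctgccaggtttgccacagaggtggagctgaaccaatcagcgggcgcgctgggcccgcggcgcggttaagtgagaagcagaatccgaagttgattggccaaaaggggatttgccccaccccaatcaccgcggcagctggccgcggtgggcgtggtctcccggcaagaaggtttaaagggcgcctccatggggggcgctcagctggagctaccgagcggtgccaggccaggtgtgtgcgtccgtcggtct
PPP1R15A, chr19:48872171-48872470, plus strand: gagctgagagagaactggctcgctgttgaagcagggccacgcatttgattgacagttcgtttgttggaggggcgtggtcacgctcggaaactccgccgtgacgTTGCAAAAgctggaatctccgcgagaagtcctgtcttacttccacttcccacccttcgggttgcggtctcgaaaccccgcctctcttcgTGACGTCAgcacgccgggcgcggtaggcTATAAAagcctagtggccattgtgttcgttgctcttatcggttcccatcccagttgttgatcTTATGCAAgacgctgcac
CEBPG, chr19:33373863-33374162, plus strand: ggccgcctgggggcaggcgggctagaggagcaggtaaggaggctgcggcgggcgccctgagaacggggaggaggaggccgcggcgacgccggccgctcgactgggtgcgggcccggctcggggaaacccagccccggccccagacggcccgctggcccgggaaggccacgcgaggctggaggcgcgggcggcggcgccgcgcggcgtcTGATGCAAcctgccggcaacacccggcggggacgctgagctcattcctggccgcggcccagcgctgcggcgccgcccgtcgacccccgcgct
ATF3, chr1:212565157-212565456, plus strand: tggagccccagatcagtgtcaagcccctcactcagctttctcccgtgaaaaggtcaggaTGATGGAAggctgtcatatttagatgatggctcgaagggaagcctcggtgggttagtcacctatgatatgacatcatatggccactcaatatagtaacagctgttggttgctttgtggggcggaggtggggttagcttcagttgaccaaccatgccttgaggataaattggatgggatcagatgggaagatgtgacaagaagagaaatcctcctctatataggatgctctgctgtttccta
CEBPB, chr20:50190580-50190879, plus strand: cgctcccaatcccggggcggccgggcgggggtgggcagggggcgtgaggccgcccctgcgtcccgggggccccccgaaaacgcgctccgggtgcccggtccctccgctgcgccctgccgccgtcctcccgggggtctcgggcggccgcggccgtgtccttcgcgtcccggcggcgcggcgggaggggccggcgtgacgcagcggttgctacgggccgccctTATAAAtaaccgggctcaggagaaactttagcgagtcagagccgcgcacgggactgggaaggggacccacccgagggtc
PTGS2, chr1:186680374-186680673, minus strand: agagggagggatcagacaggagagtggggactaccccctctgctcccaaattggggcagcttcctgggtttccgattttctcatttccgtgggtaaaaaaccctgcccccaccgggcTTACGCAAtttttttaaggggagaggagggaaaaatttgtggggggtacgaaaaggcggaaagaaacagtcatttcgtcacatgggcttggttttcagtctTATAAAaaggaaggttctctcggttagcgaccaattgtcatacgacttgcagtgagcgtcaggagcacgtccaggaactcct

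Windows were found for 9 of the 10 members, with 18 starts in all. The composite letters were present in CHAC1 209 bases before the start, in CEBPG 42 bases before and in ATF3 191 bases before, against 3.62% of all 35116 windows. PPP1R15A held the palindromic CRE 58 bases before its start, which 1.85% of all windows hold, and a TATA box 30 bases before it. The C/EBP letters were in windows of ATF3, ATF5 and PPP1R15A, and in 10.5% of all windows. CEBPB and ATF4 carried a TATA box (11.5% of all windows) and none of the 3 ATF or C/EBP elements, and TRIB3 matched no motif searched in its 3 windows. The PTGS2 window held a C/EBP match 133 bases before the start. The study placed its CEBPB site further upstream, in a promoter region that this window does not reach. Other letters searched were TGANTCA (AP-1; DDIT3 and ATF5; 7.71% of windows), CCAAT (5 members; 34.6%) and the ER stress element, CCAAT and CCACG set 9 bases apart (no member; 0.0769%). These are matches of letters only. Several members were chosen as known targets of ATF4, so nothing is read from the shares. No binding was measured here.

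Before the members, the libraries themselves were examined. MAEL had 1 count in MAEL WT and 0 in MAEL KO. That does not exceed the floor of 3 counts in either (0.151 and 0.144 CPM, counts scaled to library size). The targeted gene therefore could not check the labels. The study, by contrast, chose PLC8024 for its highest MAEL level among its lines, seen as protein on Western blots. Among 10 hepatocyte markers none was at 0 in either library, and their summed level was 1662 FPKM (fragments per kilobase scaled to library size, as deposited) in MAEL WT and 4917 in MAEL KO. The summed levels of 7 fibroblast, 4 endothelial and 6 blood markers were between 0.658 and 2.79 FPKM, and 3, 2 and 3 of these markers had 3 counts or fewer in both libraries. PECAM1, an endothelial marker, had 348 and 392 counts, and the fibroblast markers PDGFRB 122 and 29, COL1A1 92 and 11, and COL3A1 54 and 136. The 5 epithelial markers summed to 220 and 364 FPKM, with EPCAM at 15 and 0 counts and KRT19 at 13 and 1. All 20 genes of a proliferation list were higher in MAEL KO, where 8593 of all 17887 genes tested were. Their median log2 fold change was 2.21 (1.93 with total counts). Past a log2 fold change of 2 were 16 of them (8 with total counts), against 2.16% of all genes. The study reported slower proliferation of its MAEL knockout cells, which RNA counts do not measure. The part of the hepatocyte and proliferation genes in the members' differences was not tested. With 1 library each the knockout cannot be told apart from clone, culture or library. Nor can fewer cells of a kind be told apart from less RNA per cell in bulk RNA.

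Of the 10 members, 8 were lower and 2 were higher in MAEL KO, and their median log2 fold change was -2.02, against -0.04 over all genes tested. Fold changes here compare counts scaled by edgeR's TMM factors with 1 added, and each interval is an exact 95% Clopper-Pearson interval that covers counting error only. The study called genes by a log2 fold change past 2 together with an adjusted p-value cutoff. Only the fold part of that threshold was used here, as no p-value was computed. By it, 5 members were lower (CEBPB, ATF3, TRIB3, PPP1R15A and CHAC1) and 0 higher. Of all genes tested, 5.64% were lower and 2.16% higher (1008 and 387 genes). With total counts in place of TMM these were 1309 and 269 genes, and 6 members were lower, since DDIT3 then passed as well. The number was also 6 with DESeq2 size factors, upper-quartile factors, the deposited FPKM ratio or an added count of 0.1. With 5 counts added it stayed at 5. At a log2 threshold of 1, a 2-fold difference, 7 were lower and 1 was higher, where 16.5% of all genes were lower and 10.2% higher. Because the members were chosen with these folds in view, nothing is read from those shares. Together the 10 genes took 0.207% of all counts in MAEL WT and 0.0809% in MAEL KO.

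**Figure D1:**
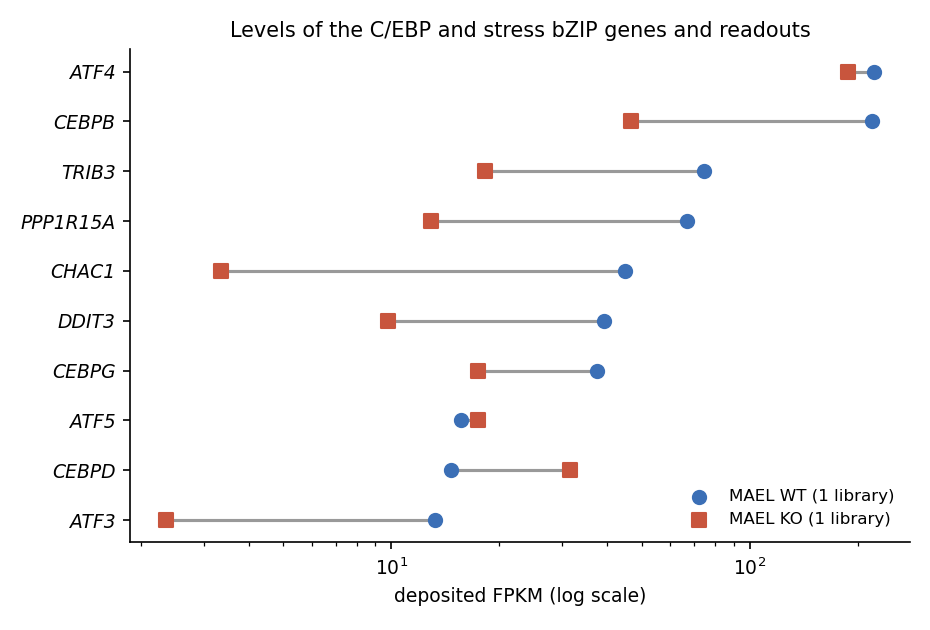
Deposited FPKM (x axis, log scale) of each member in the MAEL WT library (circles) and the MAEL KO library (squares), 1 library each. ATF4 stood highest in both libraries, at 222 and 187 FPKM, with CEBPB close to it in MAEL WT at 219. CHAC1 went from 44.8 to 3.36 and CEBPD from 14.7 to 31.4.

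CEBPB was the C/EBP gene with the highest level in both libraries. It encodes C/EBP-beta, whose activating and inhibitory protein forms come from the same mRNA and are not told apart by counts. It had 9375 counts in MAEL WT and 1723 in MAEL KO, or 219 and 46.5 FPKM. MAEL WT was thus the high library, by 4.70-fold after scaling (log2 fold change -2.23, interval -2.31 to -2.16), and CEBPB stood at percentile 4.56 of all genes tested, counted from the lowest, or 1.80 among genes with 100 counts. The gene is a single exon on the plus strand of chromosome 20 (50190734 to 50192689; all gene positions are GRCh38). Its antisense neighbour CEBPB-AS1 had 76 and 38 counts. Reads of the 2 strands cannot be told apart if counting ignored strand, and these are few beside those of CEBPB. Of 9401 other protein-coding genes with at least 300 counts in a library, the closest in fold to CEBPB were ARHGAP40, C1QL4 and C5AR1, and 21 lay inside its counting interval. Likeness over 2 libraries means only a similar fold.

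DDIT3 and CEBPG, both dimer partners of other C/EBP and ATF proteins, were also lower in MAEL KO. DDIT3, a dimer partner that turns C/EBP proteins away from their usual sites, had 1122 counts in MAEL WT and 242 in MAEL KO. That is 39.2 against 9.77 FPKM, 4.0-fold lower, and its log2 fold change of -2.0 (interval -2.21 to -1.80) was just short of the threshold before rounding; with DESeq2 size factors or total counts it was past it. It lies on chromosome 12 (57516588 to 57521737, minus strand) and overlaps MARS on the other strand, which went from 12223 to 4369 counts, and MBD6, with 1160 and 939. How reads in these overlaps were assigned is not given in the sources used here, so the DDIT3 counts are less certain than those of CEBPB. CEBPG, which encodes a short C/EBP protein that pairs with ATF4, had 3610 and 1457 counts (37.4 and 17.4 FPKM), with a log2 value of -1.10 (counting interval -1.19 to -1.01). It lies on chromosome 19 (33373330 to 33382686, plus strand), next to CEBPA.

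CEBPD went the other way. The gene of C/EBP-delta, which is induced in liver cells by interleukin 6 and STAT3, had 700 counts in MAEL WT and 1295 in MAEL KO. MAEL KO was the high library here, at 31.4 against 14.7 FPKM, a 2.14-fold higher level (log2 fold change 1.10, interval 0.96 to 1.23). CEBPD lies on chromosome 8 (47736909 to 47739086, minus strand) and has 1 exon. PRKDC, the next tested protein-coding gene after it and the gene of a DNA repair kinase, had a log2 fold change of 1.11, and SPIDR, on its other side, one of -0.06. CEBPA, no member, had 1220 and 1109 counts (log2 fold change 0.07, interval -0.05 to 0.19), and CEBPE had 0 counts in both libraries.

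Counted per length, the C/EBP family genes together stood at 332 FPKM in MAEL WT and 127 in MAEL KO. CEBPB made up 66.1% of that sum in MAEL WT and 36.5% in MAEL KO. CEBPD went from 4.43% to 24.6% and CEBPA from 6.39% to 17.5%, while CEBPG held 11.3% and 13.7% and DDIT3 11.8% and 7.68%. The ratio of CEBPB to CEBPA was 10.3 in MAEL WT and 2.09 in MAEL KO, and that of CEBPB to CEBPD 14.9 and 1.48. CEBPB thus remained the largest part of the C/EBP mRNA in MAEL KO, with CEBPD second. CEBPA mRNA was nearly level, so its larger share came with the lower sum.

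**Figure D2:**
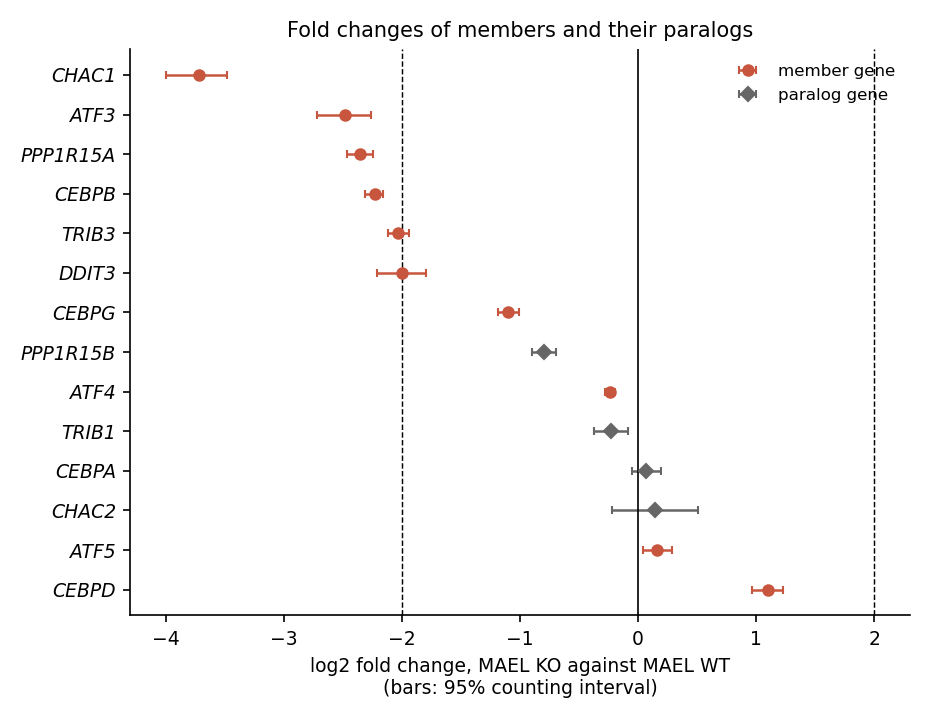
Log2 ratio of the MAEL KO to the MAEL WT count after scaling (x axis) for the 10 members (circles) and the tested paralogs CEBPA, TRIB1, PPP1R15B and CHAC2 (diamonds), with bars for the 95% counting interval and dashed lines at -2 and 2. CHAC1 lies apart at -3.72, ATF3, PPP1R15A and CEBPB follow between -2.48 and -2.23, and ATF5 and CEBPD lie above 0.

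The 3 ATF genes differed from each other. ATF4, the central factor of the integrated stress response, had 12198 counts in MAEL WT and 8922 in MAEL KO. Its level was the highest of all members in both libraries, at 222 and 187 FPKM, though CEBPB was close to it in MAEL WT. The FPKM ratio of CEBPB to ATF4 was 0.988 in MAEL WT and 0.248 in MAEL KO. ATF4 differed by -0.24 on the log2 scale (interval -0.28 to -0.20), at percentile 40.13 of all genes. ATF4 protein is set largely by translation, which mRNA counts do not measure. Reads from its pseudogenes are a minor matter, since the listed copies ATF4P1 to ATF4P4 held at most 20 counts in a library. ATF5, an ATF4 relative that is also under translational control, had 1006 and 974 counts (log2 fold change 0.16, interval 0.04 to 0.29); with total counts in place of TMM it was at -0.11. It overlaps NUP62 on the other strand, which had 1836 and 1878 counts.

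ATF3, a stress-induced gene whose protein represses many promoters as a homodimer, was the ATF gene that differed most. It had 1170 counts in MAEL WT and 180 in MAEL KO, or 13.2 and 2.35 FPKM, the lowest deposited FPKM of all members in both libraries. That rank depends on the length used. The deposited gene length of ATF3 is 4040 bases, whereas the GENCODE transcript taken here has 2033. MAEL WT was the high library by 5.59-fold (log2 fold change -2.48, interval -2.72 to -2.26). The ratio of ATF4 to ATF3 FPKM went from 16.8 to 79.7. ATF3 lies on chromosome 1 (212565334 to 212620777, plus strand). Its neighbour BATF3, another bZIP gene, was also lower, with 349 and 84 counts (log2 fold change -1.83), while NENF on the other side was at 0.24.

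All 3 readout genes were lower in MAEL KO past the threshold. CHAC1, an enzyme that degrades glutathione, had 2016 counts in MAEL WT and 131 in MAEL KO, or 44.8 and 3.36 FPKM. It was 13.2-fold lower, or -3.72 on the log2 scale (interval -4.00 to -3.48), the largest difference among the members and the 170th lowest of all 17887 genes (percentile 0.95, or 0.32 among genes with 100 counts). Its fold was closest to those of GEM, UCHL1 and IFI6. PPP1R15A, the subunit that directs protein phosphatase 1 to eIF2 and so ends the response, had 4497 and 757 counts (66.5 and 12.9 FPKM), 5.13-fold lower (log2 fold change -2.36, interval -2.47 to -2.25). TRIB3, a pseudokinase that binds ATF4 and DDIT3 and restrains AKT, had 5602 and 1183 counts (74.6 and 18.2 FPKM), 4.09-fold lower (log2 fold change -2.03, interval -2.12 to -1.94). In order of fold, ATF3, PPP1R15A and CEBPB followed CHAC1, and neighbours within that group had overlapping intervals, as did TRIB3 and DDIT3. CHAC1 was separate from the next gene by 1.24 on the log2 scale, with no overlap.

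The closest relatives of the readouts showed smaller differences. PPP1R15B, the constitutive counterpart of PPP1R15A, had 2289 and 1137 counts (log2 fold change -0.80, interval -0.90 to -0.70). The FPKM ratio of PPP1R15A to PPP1R15B was 3.32 in MAEL WT and 1.13 in MAEL KO. CHAC2, a constitutive glutathione-degrading enzyme, had 131 and 125 counts (log2 fold change 0.14, interval -0.22 to 0.51). TRIB1 had 989 and 729 counts (log2 fold change -0.23), and TRIB2 had 0 and 3 counts. The intervals of CHAC1, PPP1R15A and TRIB3 did not overlap those of these tested paralogs.

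**Figure D3:**
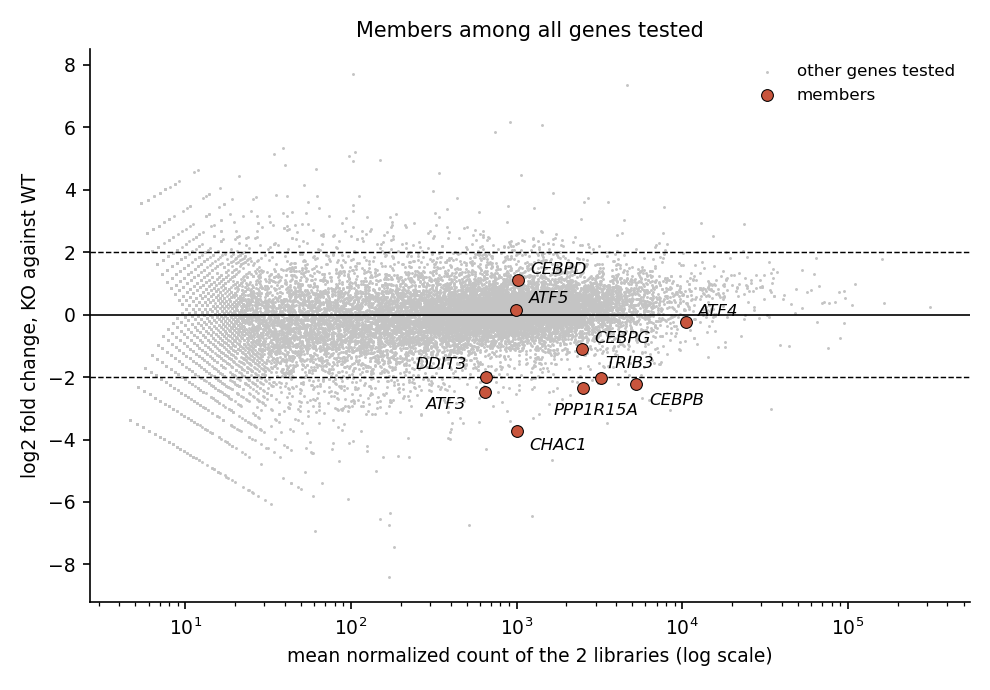
Log2 fold change (y axis) against the mean normalized count of the 2 libraries (x axis, log scale) for all 17887 genes tested, with the 10 members in red and dashed lines at -2 and 2. The members are well counted, and CHAC1 has the lowest fold change of them at -3.72.

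Position and transcript features were examined next. The 10 genes lie on 7 chromosomes, with CEBPB and TRIB3 on chromosome 20 and CEBPG, ATF5 and PPP1R15A on chromosome 19. TRIB3 spans 362835 to 397559 and PPP1R15A 48872392 to 48876057, CHAC1 lies on chromosome 15 (40952962 to 40956519), ATF4 on chromosome 22 (39519695 to 39522685) and ATF5 at 49928702 to 49933935, all on the plus strand. The tested genes within 1 Mb of each member had median log2 fold changes between -0.61 and 0.72. Lower past a log2 fold change of 2 were 15 of 88 genes around PPP1R15A and 11 of 76 around ATF5, windows that overlap each other, against 5.64% of all genes. The counts were 3 of 19 genes around TRIB3, 5 of 49 around DDIT3, 3 of 33 around ATF4 and 3 of 50 around CHAC1. They were 1 of 28 around CEBPB, 1 of 21 around ATF3, 0 of 24 around CEBPG and 0 of 5 around CEBPD. Of the 20 nearest tested protein-coding genes, 1 was lower past a log2 fold change of 2, ARHGAP9 beside DDIT3, with 33 and 3 counts. RBCK1, next to TRIB3, had 4147 and 922 counts, a log2 fold change of -1.96, near that of TRIB3. PLEKHA4, next to PPP1R15A, was at -1.62.

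In 1 GENCODE 29 transcript per gene, 7 of 10 members had 2 or more ATG triplets before the coding start, against 31.8% of the 13637 protein-coding genes tested. Such upstream ATGs are the feature through which translation of ATF4, ATF5, DDIT3 and PPP1R15A is controlled. Genes of that response were chosen as members, so nothing is read from the share. The number was 7 in ATF4, 3 in TRIB3 and CEBPG, 2 in ATF5, DDIT3, PPP1R15A and CEBPD, 1 in ATF3 and 0 in CEBPB and CHAC1. The number depends on the transcript taken. CEBPB and CEBPD were single-exon, as were 2.49% of all genes. The median GC content of the members was 59.4% against 49.6%, with CEBPD highest at 70.0% and CEBPG lowest at 43.9%. The pentamer ATTTA, part of the elements that destabilise mRNA, was in the 3′ UTR of 6 members (67.3% of all genes).

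The same comparison was extended to other bZIP genes, using a list of 46, of which 41 were tested. Their median log2 fold change was -0.74, with 30 below 0, where 9294 of all 17887 genes were below 0. Past the threshold 6 were lower and 2 higher, against the 5.64% and 2.16% of all genes. The count higher was 1 with total counts, with upper-quartile factors or with 5 counts added, and the count lower was 4 with 5 counts added. CREB3L1, a membrane-bound relative of ATF6, had 418 and 53 counts (log2 fold change -2.75, interval -3.21 to -2.35). BATF2 had 145 and 26 counts (-2.23, interval -2.93 to -1.66) and MAFA 28 and 4 (-2.35, interval -4.57 to -1.08). NFE2 had 13 and 1 (-2.66, interval -8.90 to -0.76). The other 2 lower genes were FOSL1 (1320 and 254 counts, -2.16, interval -2.37 to -1.97) and JDP2, an AP-1 repressor (534 and 105 counts, -2.13, interval -2.45 to -1.83). Both were named here after their values were seen. Among these lower genes only CREB3L1 had an interval wholly past the threshold. The higher genes were HLF, with 214 and 1445 counts (log2 fold change 2.96, interval 2.76 to 3.18), and TEF, with 72 and 253 (2.01, interval 1.64 to 2.42), both PAR bZIP factors. DBP, the other PAR bZIP gene and named after its values were seen, was at -0.46, with 620 and 388 counts. CREB3L3, a liver-specific ER stress factor, was at 1.78, with 207 and 618 counts.

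**Figure D4:**
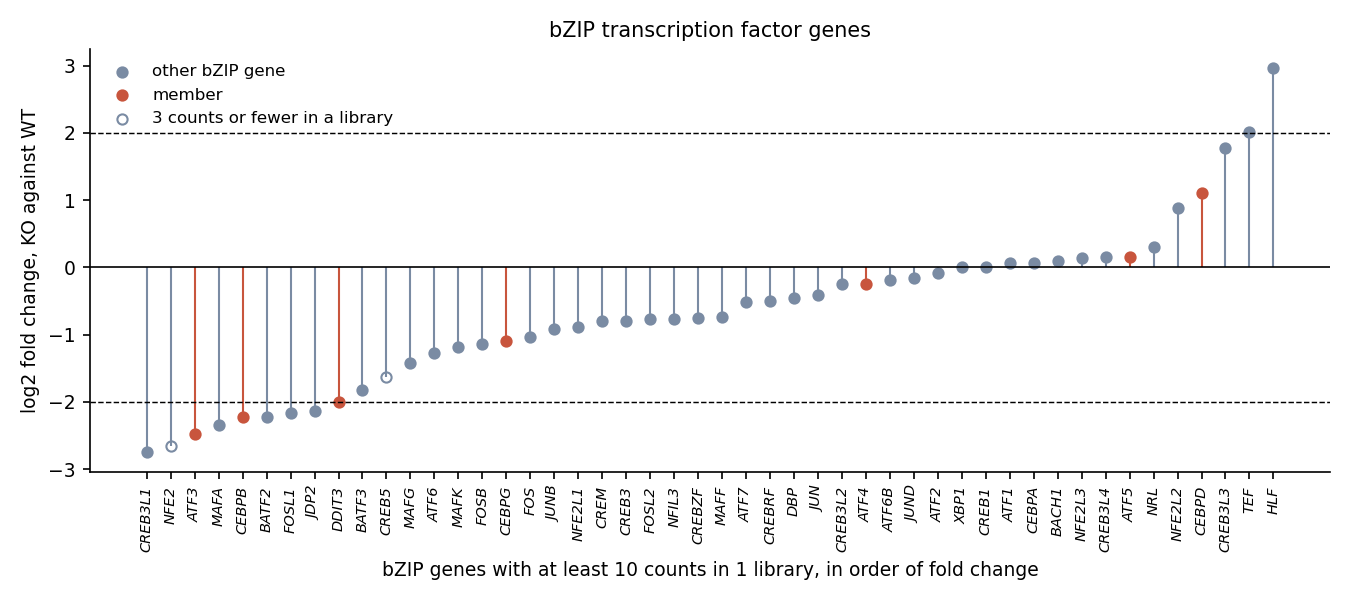
Log2 fold change (y axis) of 48 tested bZIP genes in order of fold change, with the 7 bZIP members in red, the other genes in grey and open circles for genes with 3 counts or fewer in a library. Of the 48 genes 35 lie below 0, from CREB3L1 at -2.75 to HLF at 2.96, and the members are spread over the range.

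Upstream of ATF4, genes of the eIF2 machinery differed in both directions. Of 21 genes of eIF2 kinases, eIF2, eIF2B and phosphatase partners, 0 passed the threshold, 8 were below 0, and the median log2 fold change was 0.19, or -0.09 with total counts in place of TMM. With 1 library per group no test stands behind that 0. Of the 4 kinases, EIF2AK3 (PERK), which senses ER stress, had 1006 and 461 counts (log2 fold change -0.91, interval -1.08 to -0.75). EIF2AK2 (PKR) was at -0.58, EIF2AK1 (HRI) at -0.01 and EIF2AK4 (GCN2) at 0.24. PPP1CC, a catalytic subunit of protein phosphatase 1, was the highest at 1.21, with 2109 and 4215 counts. Phosphorylation of eIF2 was not measured here.

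Downstream, most of the listed targets of ATF4 and DDIT3 outside the member list had lower counts in MAEL KO after scaling. Like the other gene lists, these target lists were chosen with earlier results of these data known. Nothing is therefore read from their shares. Of 22 genes of amino acid synthesis and transport, 20 were below 0 (9294 of 17887 over all genes) and 5 were lower past the threshold (5.64% over all genes), with a median log2 fold change of -1.0. ALDH1L2, a mitochondrial folate enzyme, had 2463 and 215 counts (-3.30, interval -3.52 to -3.11), and the amino acid transporter SLC1A4 had 1529 and 191 (-2.78). ASNS, asparagine synthetase, had 234 and 41 counts (-2.28, interval -2.82 to -1.82), and SLC6A9 had 222 and 27 (-2.79). SLC7A3 had 15 counts in MAEL WT and 0 in MAEL KO, and the counting interval of its log2 fold change ended at -1.63. PSPH at 0.25 and ALDH18A1 at 0.70 were the 2 above 0.

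Of 25 targets in stress and growth control, 22 were below 0, 8 were lower past the threshold and 1 was higher, and the median was -1.33. Over all genes 9294 of 17887 were below 0, 5.64% lower past the threshold and 2.16% higher. JDP2 is 1 of these 8 and stands in the bZIP list too. INHBE, an activin subunit made by hepatocytes, had 3385 and 116 counts (-4.65, interval -4.94 to -4.39). NUPR1, a stress-induced chromatin protein, had 6923 and 534 (-3.48), GDF15, a stress hormone, 65370 and 6975 (-3.02), and SESN2, an inhibitor of mTORC1, 3476 and 464 (-2.69). FGF21 had 41 counts in MAEL WT and 0 in MAEL KO, and its interval ended at -3.20. The members of this list above 0 were BCL2L11 at 0.74, ERO1A at 1.96 and NDRG1 at 3.43, the latter with 1414 and 13198 counts.

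The ATF6 and XBP1 arm, which raises ER chaperones, was mixed. Of its 21 genes 12 were below 0, near the share over all genes (9294 of 17887), 2 were lower past the threshold (5.64% over all genes) and 0 higher, and the median was -0.36. ERN1, the sensor IRE1, had 3779 and 748 counts (-2.13, interval -2.24 to -2.01), and HERPUD1, an ER degradation factor, 5551 and 1189 (-2.01, interval -2.10 to -1.92). DNAJB9 was at -1.53. The highest were PDIA4 at 0.59, SEC61B at 0.49 and SDF2L1 at 0.45. HSPA5 (BiP), named after its values were seen, had 63389 and 27544 counts (-0.99), and XBP1, of the bZIP list, 10801 and 9334 (counting interval -0.04 to 0.04).

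**Figure D5:**
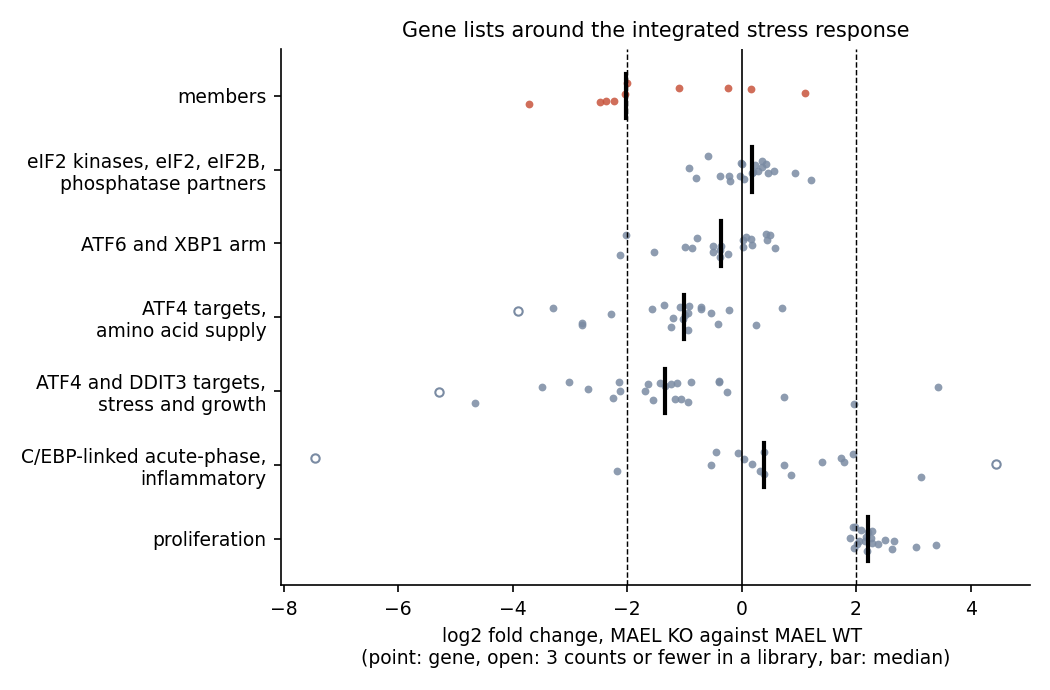
Log2 fold change (x axis) of the tested genes of each list (points, open where a library had 3 counts or fewer), with the list median (black bar) and dashed lines at -2 and 2. The members and the ATF4 and DDIT3 target lists have medians of -2.02, -1.0 and -1.33, the eIF2 machinery 0.19 and the proliferation genes 2.21.

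Genes linked to C/EBP-beta and C/EBP-delta in inflammation did not move as 1 group. Of 26 listed, 18 were tested, 5 were below 0 (9294 of 17887 over all genes), 2 passed the threshold in each direction (5.64% lower and 2.16% higher over all genes), and the median log2 fold change was 0.39. PTGS2 had 390 counts in MAEL WT and 1 in MAEL KO, a log2 fold change of -7.45 whose counting interval ran from -13.70 to -5.91. CXCL8, the gene of interleukin 8, had 5434 and 1039 counts (-2.18, interval -2.27 to -2.08). The acute-phase genes ORM2 (73 and 564 counts, 3.14) and ORM1 (627 and 2087, 1.94) were higher, and HP had 1 and 38 counts (4.44, interval 2.89 to 10.80). LBP was at -0.53. Other genes of the list were named after their values were seen. CXCL2 was at 0.04, SOD2 at 0.18, CXCL1 at 0.87 and CCL20 at 1.74. Below 0 were C3 at -0.07 and LCN2 at -0.44, the latter with 27 and 17 counts (interval -1.42 to 0.47).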

How the data were processed

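RNA of 1 MAEL WT and 1 MAEL KO culture was sequenced with Illumina library protocols. Per the labels, HISAT2 2.0.5 and featureCounts 1.5.0-p3 were used by the authors, and hg19 is named as the build, whereas the gene coordinates of the deposited tables are those of GRCh38. The authors deposited raw counts per gene and FPKM values. The deposited FPKM values equal counts over gene length and a library size that is 1.0989 times the total in MAEL WT and 0.9100 times in MAEL KO. All 4 sample columns were used.

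Counts were scaled here by TMM in edgeR 4.0.16 (factors 1.1004 for WT and 0.9087 for KO), with DESeq2 1.42.0 and other alternatives, in R 4.3.3 and Python 3.11.15 (SciPy 1.17.1, pandas 2.3.3). Log2 fold changes use 1 added count. With 1 library per condition no test was run. Intervals and the floor of 3 counts cover counting error only, as PCR copies could not be counted out. The scripts were tested on simulated data. Members and gene lists were chosen with earlier results of these data known. Named are all members, their paralogs and neighbours, the eIF2 kinases, PTGS2, the 3 closest genes in fold of CEBPB and CHAC1, and up to 3 genes at each end of each list with those past the threshold, up to 6 a list. Promoters are from RefSeq (GRCh38.p14), transcripts from GENCODE 29.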

Additional observations from a re-analysis of the deposited data

How the results depend on the processing

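No paired analysis was possible because there is 1 library per condition, and leaving out a library gives no value. Total counts in place of TMM moved the median of all genes tested from -0.04 to -0.31 and gave log2 fold changes of -2.51 for CEBPB, 0.82 for CEBPD, -1.37 for CEBPG, -2.27 for DDIT3, -2.76 for ATF3, -0.52 for ATF4, -2.31 for TRIB3, -2.63 for PPP1R15A and -0.11 for ATF5, whose sign turned; list medians moved to -1.02 for other bZIP genes and 1.93 for proliferation genes. ATF4 was at -0.29 with upper-quartile factors. The number of members higher was 1 at a log2 threshold of 1. Of all genes, against 1008 lower and 387 higher past the threshold, adding 5 counts gave 513 lower and 250 higher, dropping the filter 1773 and 1029, a filter of 100 counts 283 and 185, and a log2 threshold of 1 gave 2951 and 1827. These shifts follow from the scaling, filter or threshold itself. There were 176 alternative values for the members, the list medians, the counts of genes and the C/EBP shares. Of these, 155 stayed within their interval, the spread of the list, 1.5 times the count or near the share. The alternative for the shares, counts over gene length, equals the FPKM share by construction and could not move. The deposited FPKM ratio scales almost as DESeq2 does, so those settings are not separate checks. Genes such as PTGS2 or FGF21, at 3 counts or fewer in a library, are limited by depth.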
